A study of Mus musculus with 12 samples.

Results

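Kidneys of mice given an antibody against the G-CSF receptor were compared with kidneys of mice given an antibody against complement protein C5, gene by gene, after ischaemia-reperfusion injury (IRI). The samples were chosen by their titles alone: kidneys 7, 8 and 9 carried the title for anti-G-CSFR and kidneys 10, 11 and 12 that for anti-C5, so that 6 of the 12 kidneys in the study entered the comparison, 3 against 3, over 13124 genes. All mice were male C57BL/6, and IRI was unilateral and warm, in which the blood flow to a kidney is stopped at body temperature and then restored. Anti-G-CSFR is labelled VR81 and anti-C5 is labelled BB5.1, and each was given 24 h before IRI. RNA was taken 24 h after IRI from whole kidneys that had been flushed with saline, so all their cells contributed. By their labels both groups therefore share the IRI procedure, the time and the injection of an antibody. The other kidneys, used here for reference levels, were kidneys 1 to 3 after a sham operation and kidneys 4 to 6 after IRI with an isotype control antibody. The design text counts 3 mice in each group, and which kidney of an IRI mouse was sampled, operated or not, is not stated in the labels.

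G-CSF is the cytokine that drives the production of neutrophils in the bone marrow and their release into the blood, and it acts through a receptor, encoded by Csf3r, that neutrophils and their precursors carry. C5 belongs to the complement system of plasma proteins. When complement is activated, C5 is cut into C5a, which attracts and activates neutrophils and monocytes through the receptor encoded by C5ar1, and C5b, which starts the assembly of the membrane attack complex. One antibody is thus directed at the supply of neutrophils and the other at a signal that calls them and at a lytic pathway, and both routes have been studied in reperfused kidney.

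No gene was called different between the 2 antibody groups. Of 13124 genes, 0 had a Benjamini-Hochberg (BH) adjusted p below 0.05 in edgeR's quasi-likelihood test (0%), the smallest adjusted p being 0.999971. At an unadjusted p below 0.05 the test gave 207 genes (1.58%), 143 higher under anti-C5 (1.09%) and 64 lower (0.488%). DESeq2 called 2 genes, Cxcr2 and S100a8, both higher under anti-C5, and limma-voom called 0, with 142 genes at an unadjusted p below 0.05. The 2 groups did not overlap, the lowest kidney of one being above the highest of the other, for 562 genes (4.28%), with anti-C5 above for 313 (2.38%) and below for 249 (1.9%). Below, "higher" and "lower" describe measured levels, and no gene is said to have changed between these groups.

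The size of the difference was bounded for most genes. The 95% confidence interval of the log2 difference, anti-C5 minus anti-G-CSFR, lay within a 2-fold difference in either direction for 11995 of the 13124 genes (91.4%), and the median half-width of that interval was 0.34. The fitted difference passed 2-fold for 139 genes, and for 18 of those the 2 groups did not overlap.

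**Figure D1:**
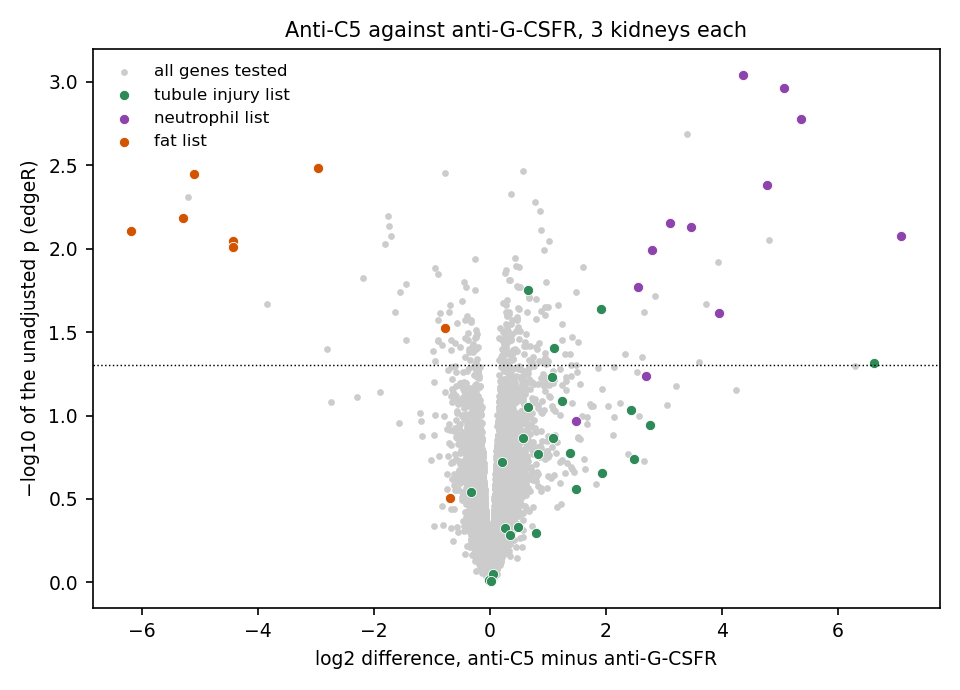
Each of the 13124 genes is placed by its log2 difference, anti-C5 minus anti-G-CSFR (x axis), and the minus log10 of its unadjusted edgeR p (y axis), with the genes of 3 lists in colour and a dotted line at the threshold of 0.05. Neutrophil genes lie far to the right and fat genes far to the left, while most genes lie close to 0.

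Both antibody groups differed from the isotype kidneys over much of the table. Against isotype, edgeR called 8334 genes (63.5%) for anti-G-CSFR and 7919 (60.3%) for anti-C5, and these comparisons share the 3 isotype kidneys. Against sham, 0 genes were called for either antibody by edgeR, with 778 (5.93%) and 1487 (11.3%) at an unadjusted p below 0.05. Within the antibody groups some kidneys stood apart. Kidney 11 had 599 genes over 2-fold away from both other anti-C5 kidneys, kidney 9 had 208 in the anti-G-CSFR group, and the other 4 had 28 to 113. Total counts per library in the 12 kidneys ran from 13200930 to 16324215. The markers of the labelled tissue were measured: all 36 genes of the proximal tubule list, 18 of the loop of Henle and distal tubule list, 18 of the collecting duct list and 11 of the podocyte list had an entry in the table. None of 15 T and NK cell genes had an entry, and 1 of 8 B and plasma cell genes did.

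The genes of the targets came first. Csf3r (Entrez 12986, GRCm38 chromosome 4, 126024550 to 126044440, protein-coding) stood at 0.859, 0.224 and 1.06 CPM (reads of the gene relative to library size) in anti-G-CSFR kidneys 7, 8 and 9, and at 1.13, 16.2 and 1.39 CPM in anti-C5 kidneys 10, 11 and 12. All 3 anti-C5 kidneys lay above all 3 anti-G-CSFR kidneys, but only kidney 11 was clearly higher, at the level of the isotype kidneys (6.88 to 14.4 CPM), while the others lay near or below sham (1.07 to 1.82 CPM). The log2 difference was 3.11 (95% interval 1.02 to 5.20). Without kidney 11 it was 0.80. In whole-kidney RNA, fewer cells of a type and less of an RNA in each cell cannot be told apart.

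C5ar1 (Entrez 12273, chromosome 7, 16246743 to 16259540, protein-coding), the receptor gene for C5a, stood at 1.06, 2.16 and 3.48 CPM under anti-G-CSFR and at 1.9, 8.1 and 1.55 CPM under anti-C5. The groups overlapped, and kidneys 9 and 11 were the highest of each. The log2 difference of C5ar1 was 0.80, with an interval of -0.47 to 2.07. Without kidney 11 the sign turned, at -0.35. Hc, the mouse gene of C5, Csf3, the gene of G-CSF itself, and C5ar2, the gene of the other C5a receptor, have no entry in the table and were not analysed here.

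Neutrophil genes held the largest positive differences. S100a8 and S100a9 encode the paired calcium-binding proteins that make up calprotectin, an abundant cytosolic protein of neutrophils, and Cxcr2 encodes the chemokine receptor that guides them out of the blood. S100a8 (Entrez 20201, chromosome 3, 90668978 to 90670035, protein-coding) stood at 0.727, 0.224 and 0.151 CPM in kidneys 7, 8 and 9 and at 1.83, 33.6 and 3.63 CPM in kidneys 10, 11 and 12. The groups did not overlap. The sham kidneys (1.69 to 2.75 CPM) lay above all 3 anti-G-CSFR kidneys and on both sides of kidney 10, and the isotype kidneys held 7.19 to 24.8 CPM, below kidney 11. The log2 difference was 5.07 (interval 2.49 to 7.65), and it was 2.81 without kidney 11 and 2.45 without kidneys 9 and 11.

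S100a9 (Entrez 20202, chromosome 3, 90692632 to 90695721, protein-coding) stood at 0.859, 0.895 and 0.832 CPM under anti-G-CSFR and at 3.39, 44.6 and 5.49 CPM under anti-C5. The anti-G-CSFR kidneys were close together, all below the sham kidneys (3.22 to 4.29 CPM), and every anti-C5 kidney was above them. The log2 difference of S100a9 was 4.36 (interval 2.19 to 6.52). Without kidney 11 it was 2.35. Cxcr2 (Entrez 12765, chromosome 1, 74153989 to 74161246, protein-coding) was counted 2, 1 and 0 times in kidneys 7, 8 and 9 and 5, 117 and 14 times in kidneys 10, 11 and 12. That is 0.132, 0.0746 and 0 CPM against 0.353, 8.46 and 1.08 CPM, with no overlap. For Cxcr2 the log2 difference was 5.37 (interval 2.47 to 8.27) and 3.16 without kidney 11.

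The call rested on the method for 2 of these genes. DESeq2 gave S100a8 a log2 difference of 5.12 and Cxcr2 one of 5.53, each at an adjusted p of 0.0149, and gave S100a9 no p. Over the alternatives the adjusted p of S100a8 and of Cxcr2 ran from 0.0149 to 1. Both genes kept their positive sign in every alternative that gave a value, S100a8 in 25 and Cxcr2 in 23.

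**Figure D2:**
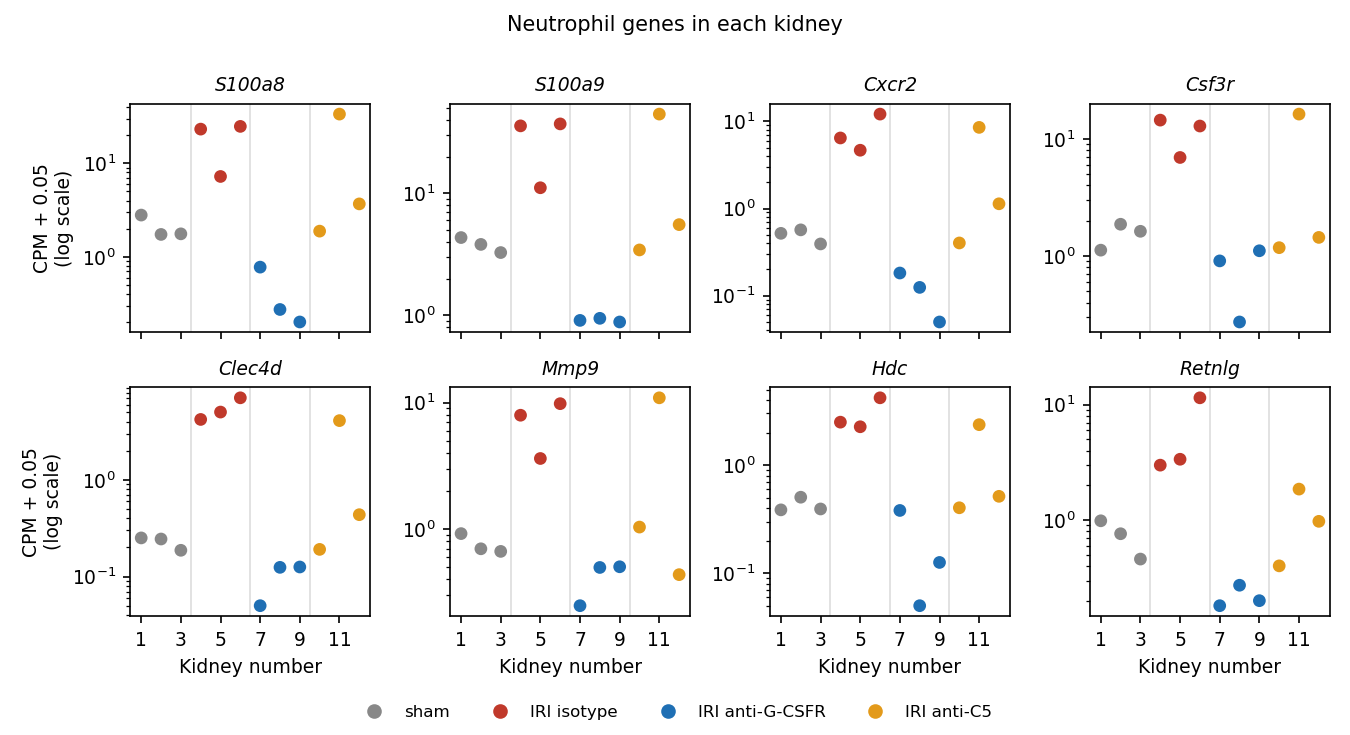
CPM plus 0.05 on a log axis is plotted for 8 neutrophil genes in each of the 12 kidneys, one point a kidney, coloured by group. Kidney 11 lies with the isotype kidneys in most panels, kidneys 10 and 12 lie near sham, and kidneys 7, 8 and 9 are mostly at or below sham.

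Of 25 genes on the neutrophil list, 12 had an entry. An entry needed about 2 CPM in 3 libraries, which isotype kidneys could supply, so the measured genes are not the whole list and their count supports nothing by itself. All 12 were higher under anti-C5, with a median log2 difference of 3.71 beside 0.01 over all genes tested. At an unadjusted edgeR p below 0.05 there were 10, where 1.09% of all genes tested were higher at that threshold. With limma-voom that count was 4, beside 90 of all 13124 genes. With sample weights it was 3, beside 118, and 11 of the 12 were positive. In 8 of 12 all anti-C5 kidneys lay above, where 2.38% of all genes did. Clec4e, a C-type lectin receptor of myeloid cells that senses dead cells and microbial glycolipids, had no count in kidneys 7, 8 and 9 and 1, 42 and 4 counts in kidneys 10, 11 and 12. Set against a floor of 3 counts over the anti-G-CSFR group, Clec4e was at least 3.99 higher on the log2 scale. That bound lies above the middle values of the list, so it could not move the median of 3.71.

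Other neutrophil genes also had kidney 11 highest, then 12, then 10. Clec4d, a related lectin receptor, stood at 0, 0.0746 and 0.0756 CPM under anti-G-CSFR and at 0.141, 4.05 and 0.387 CPM under anti-C5. Retnlg, a resistin-like protein of neutrophils, stood at 0.132, 0.224 and 0.151 against 0.353, 1.81 and 0.928 CPM, and Hdc, the enzyme that makes histamine, at 0.33, 0 and 0.0756 against 0.353, 2.31 and 0.464 CPM. None of these 3 overlapped between groups. Slfn4, a schlafen gene of myeloid cells that is not on the list, also did not overlap, at 0.132, 0.0746 and 0.303 against 0.635, 4.19 and 0.696 CPM (log2 difference 3.40).

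The remaining 4 listed genes overlapped between groups, with kidney 11 the highest of the 6 for each. Mmp9, the gelatinase stored in neutrophil granules, stood at 0.198, 0.448 and 0.454 CPM under anti-G-CSFR and 0.987, 10.8 and 0.387 CPM under anti-C5. Trem1, an amplifier of inflammatory signalling, stood at 0.0661, 0 and 0.151 against 0.0705, 3.62 and 0 CPM. Il1r2, the decoy receptor for interleukin-1, and Il1b, the cytokine itself, had log2 differences of 2.70 (interval -0.11 to 5.50) and 1.49 (-0.38 to 3.35). Without kidney 11 the fitted differences of Trem1, Il1r2 and Il1b were -0.83, -0.37 and -0.47.

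Summed over the 12 measured genes, neutrophil RNA stood at 5.68, 4.25 and 5.22 CPM in kidneys 7, 8 and 9 and at 9.87, 146.8 and 16.2 CPM in kidneys 10, 11 and 12. No anti-C5 kidney lay as low as any anti-G-CSFR kidney. The sham kidneys held 10.8 to 12.7 CPM and the isotype kidneys 60.2 to 150.6 CPM, so kidney 10 was just below sham, kidney 12 just above it and kidney 11 within the isotype range. Without kidney 11 the median log2 difference of the 12 genes was 1.66, with 9 positive and 5 at an unadjusted edgeR p below 0.05, and without kidneys 9 and 11 it was 1.48, with 10 positive.

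Set against the isotype kidneys, which both comparisons share, the neutrophil genes gave these values. Of the 12, edgeR called 11 lower under anti-G-CSFR, where 32% of all genes were, and 3 lower under anti-C5, where 29.8% were, at a BH-adjusted p below 0.05. The isotype kidneys could supply the minimum for an entry, which favours genes that are lower elsewhere. These counts therefore support nothing by themselves, and the shares over all genes are not a like measure. S100a8 fell under anti-G-CSFR by 5.56 on the log2 scale (edgeR adjusted p = 0.00151) and stood at -0.50 under anti-C5 (edgeR adjusted p = 0.603). Csf3r fell under anti-G-CSFR by 3.97 (edgeR adjusted p = 0.00318) and stood at -0.86 under anti-C5 (edgeR adjusted p = 0.335). These pairs of values do not show that the antibodies differed. That difference is the direct comparison above, in which edgeR called neither gene.

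The promoters of 4 of these neutrophil genes are printed because the genes did not overlap between groups, each with kidney 11 highest, then 12, then 10, and because C/EBP proteins and PU.1 are the classical transcription factors of the granulocyte lineage. Each is the 250 bases before the RefSeq start of the gene on build GRCm38.p6, written 5′ to 3′ on the gene's own strand, with matches to the C/EBP half-site pair TTNCNNAA and to the PU.1 core GAGGAA in capitals, searched on both strands, so that a match on the opposite strand reads as TTNNGNAA or TTCCTC. S100a8 lies at chr3:90668821-90669070 (+), S100a9 at chr3:90695722-90695971 (-), Csf3r at chr4:126024409-126024658 (+) and Cxcr2 at chr1:74153744-74153993 (+).
S100a8: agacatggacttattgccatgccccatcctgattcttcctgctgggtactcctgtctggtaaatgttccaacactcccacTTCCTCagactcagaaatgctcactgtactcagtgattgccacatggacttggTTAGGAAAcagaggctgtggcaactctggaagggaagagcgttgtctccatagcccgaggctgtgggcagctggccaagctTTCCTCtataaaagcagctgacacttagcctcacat
S100a9: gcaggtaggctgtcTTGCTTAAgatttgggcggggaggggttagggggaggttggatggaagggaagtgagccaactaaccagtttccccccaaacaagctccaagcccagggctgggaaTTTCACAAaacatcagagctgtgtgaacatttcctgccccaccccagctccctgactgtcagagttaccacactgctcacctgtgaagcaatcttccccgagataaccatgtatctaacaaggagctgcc
Csf3r: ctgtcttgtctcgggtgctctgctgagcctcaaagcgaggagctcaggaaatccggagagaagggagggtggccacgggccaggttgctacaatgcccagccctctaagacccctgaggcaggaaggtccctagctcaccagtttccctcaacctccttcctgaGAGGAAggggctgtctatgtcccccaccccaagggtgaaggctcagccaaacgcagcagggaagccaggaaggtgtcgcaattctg
Cxcr2: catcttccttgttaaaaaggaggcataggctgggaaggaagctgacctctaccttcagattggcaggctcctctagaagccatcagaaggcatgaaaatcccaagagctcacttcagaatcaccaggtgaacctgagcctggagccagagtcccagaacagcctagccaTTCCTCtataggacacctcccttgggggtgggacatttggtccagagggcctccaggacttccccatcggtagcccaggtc
The S100a8 window held 1 C/EBP and 2 PU.1 matches, that of S100a9 held 2 C/EBP matches and 0 PU.1 matches, and those of Csf3r and Cxcr2 held 1 PU.1 match each. No matches overlapped in these windows. Of 32851 promoters of this length in the RefSeq table, 36.8% held a C/EBP match and 23.3% a PU.1 match. Among the 11 measured neutrophil genes with a promoter in the table, of 12, the counts were 7 and 6. A match is a run of letters and was not tested for binding.

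Monocyte and macrophage genes differed less. The list had 19 measured genes of 24, with a median log2 difference of 0.21. With 1 kidney left out at a time the median ran from 0.080 (without kidney 11) to 0.43 (without kidney 9). Only 1 of the 19, Lyz2, had all anti-C5 kidneys above, where 2.38% of all genes did. Lyz2 (Entrez 17105, chromosome 10, 117277331 to 117282321, protein-coding), the lysozyme of macrophages and neutrophils, stood at 26, 25.4 and 17.2 CPM under anti-G-CSFR and at 32.9, 69.9 and 37.1 CPM under anti-C5. All 3 anti-C5 kidneys were also above the sham kidneys (19.6 to 26.7 CPM). Lyz2 had a log2 difference of 1.03 (interval 0.31 to 1.75), and without kidneys 9 and 11 it was 0.44. Rac2, a small GTPase of blood cells that neutrophils need for migration and the oxidative burst, stood at 2.31, 2.91 and 3.71 against 4.37, 8.61 and 4.1 CPM, also with no overlap (log2 difference 0.94).

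Resident macrophage and antigen-presenting cell genes had smaller differences. Csf1r, the receptor that keeps macrophages alive, stood at 46.1, 49.3 and 37.3 CPM under anti-G-CSFR and at 60.9, 38.6 and 46.7 CPM under anti-C5, with overlap and a log2 difference of 0.14 (interval -0.22 to 0.50). C1qc, a complement C1q chain made by macrophages, stood at 12.6, 15.1 and 17.6 against 15.6, 19.5 and 17.9 CPM (log2 difference 0.23, interval -0.22 to 0.68). For 7 of 9 measured genes of the dendritic cell and MHC class II list the interval lay within 2-fold, and the median was 0.021, and -0.10 to 0.25 with 1 kidney left out at a time.

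Beyond the receptor, genes of the G-CSF pathway overlapped between groups. The receptor signals through JAK kinases and STAT transcription factors, and the C/EBP factors direct granulocyte genes. Of 21 listed genes 18 were measured, with a median log2 difference of 0.09 (-0.014 without kidney 11). The interval lay within 2-fold for 13 of the 18, a smaller share than the 91.4% of all genes. Jak2, a kinase bound to the receptor, stood at 46.4, 38.9 and 45.3 CPM under anti-G-CSFR and at 42.7, 48.6 and 44.6 CPM under anti-C5 (interval -0.16 to 0.27). Of the 18 measured genes, the groups overlapped for all but Csf3r. Cebpb, a C/EBP factor of emergency granulopoiesis, stood at 4.49, 3.58 and 5.98 against 4.8, 9.11 and 4.48 CPM. Cxcl12, the marrow and kidney chemokine that retains neutrophils through Cxcr4, stood at 184, 131 and 146 against 168, 102 and 174 CPM (interval -0.52 to 0.40). Cxcr4 itself had a log2 difference of 0.56 (interval -0.01 to 1.12). Socs3, the feedback inhibitor of the receptor, stood at 2.31, 2.83 and 16.7 against 2.26, 19.3 and 2.01 CPM, with 1 high kidney in each group. Its log2 difference was 0.13 (interval -1.74 to 1.99), an interval too wide to bound a 2-fold difference.

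No complement gene was called. The list of components had 16 measured genes of 23, with a median log2 difference of -0.15, and that of receptors and regulators had 12 of 17, with a median of 0.06. Without kidney 9 the first median was 0.046, and without kidney 11 the other was -0.045. C3 (Entrez 12266, chromosome 17, 57203970 to 57228136, protein-coding), the central component that all complement routes cleave, stood at 77.9, 79.4 and 439 CPM under anti-G-CSFR and at 70, 95.1 and 53.1 CPM under anti-C5. Kidney 9 alone was high, above the sham kidneys too (112 to 187 CPM), and the other 5 overlapped. For C3 the log2 difference was -1.45 (interval -2.78 to -0.12) and -0.12 without kidney 9.

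Cfb (Entrez 14962, chromosome 17, 34856374 to 34862518, protein-coding), the protease subunit of the alternative pathway convertase, stood at 359, 373 and 433 CPM under anti-G-CSFR and at 340, 314 and 355 CPM under anti-C5. The groups did not overlap, by a narrow margin, and all 6 kidneys were well above the isotype kidneys (120 to 165 CPM). Against sham, edgeR called 0 of the 16 measured complement components for either antibody, and 0 of all genes tested. Cfb had a log2 difference of -0.21, with an interval of -0.51 to 0.09. Itgam, the alpha chain of complement receptor 3 on neutrophils and macrophages, stood at 1.85, 2.98 and 4.24 against 2.82, 12.7 and 2.94 CPM, again with kidney 11 high (log2 difference 1.03, and -0.058 without kidney 11). C3ar1, the receptor for the C3 fragment C3a, stood at 2.44, 2.69 and 2.5 against 2.12, 2.97 and 2.63 CPM (interval -0.52 to 0.55). Cr1l, the mouse membrane regulator Crry, stood at 68.1, 67.6 and 64.7 against 61.6, 69.1 and 70.9 CPM (interval -0.19 to 0.21).

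Kidney 9 also carried fibrinogen RNA. Fga (Entrez 14161, chromosome 3, 83026076 to 83033627, protein-coding), the alpha chain of fibrinogen, stood at 32.1, 24.6 and 491 CPM in kidneys 7, 8 and 9 and at 28.2, 91 and 27.8 CPM in kidneys 10, 11 and 12. Fgb stood at 1.26, 2.91 and 151 against 2.75, 19.6 and 0.85 CPM, and Fgg at 13.5, 15.4 and 461 against 15.4, 73.7 and 11 CPM. In all 3 chains kidney 9 was the highest of the 6 and kidney 11 the next. Fga had a log2 difference of -1.90 (interval -4.00 to 0.20), and 0.78 without kidney 9. Those of Fgb and Fgg were -2.73 and -2.29, and 1.91 and 1.20 without kidney 9.

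Tubule injury genes set single kidneys apart rather than groups. Havcr1 (Entrez 171283, chromosome 11, 46735080 to 46779578, protein-coding), which encodes KIM-1 on damaged proximal tubule cells, stood at 17.2, 44.3 and 345 CPM under anti-G-CSFR and at 31.7, 1507 and 14.5 CPM under anti-C5. Kidneys 9 and 11 were high and the other 4 were low in both groups. The log2 difference of Havcr1 was 1.93, with an interval of -1.36 to 5.23, and it was 4.06 without kidney 9 and -2.55 without kidney 11. Lcn2, the iron-scavenging protein NGAL that injured tubule and neutrophils release, stood at 14.3, 10.8 and 155 against 18.1, 281 and 13 CPM. Krt20, a keratin of stressed epithelium, stood at 1.92, 2.76 and 14.3 against 1.27, 98.8 and 1.39 CPM. Spp1, osteopontin, stood at 1335, 1568 and 10424 against 1456, 10758 and 1244 CPM, which left kidneys 9 and 11 alike.

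All 25 genes of the injury list had an entry, and all 25 rose in the isotype kidneys against sham (edgeR, 32.1% of all genes tested rose). Between the antibody groups 0 were called, 23 were higher under anti-C5, and 4 were so at an unadjusted edgeR p below 0.05, where 1.09% of all genes tested were. The median log2 difference was 0.84, which Il24 at its bound of 3.51 could not move. That median was -0.51 without kidney 11 and 0.06 without kidneys 9 and 11. Anxa1, an annexin with a part in ending inflammation, was the 1 listed gene with no overlap (2.38% of all genes had anti-C5 above), at 12.2, 10.6 and 12.8 against 14, 28.1 and 14.3 CPM (log2 difference 0.66, interval 0.14 to 1.19). Cd44, a hyaluronan receptor of injured tubule and leukocytes, stood at 1.12, 2.39 and 3.71 against 2.75, 21.9 and 2.32 CPM (log2 difference 1.92).

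The injury and neutrophil levels did not go together in every kidney. To place each kidney, the log2 CPM values of a list were averaged within it and set against the sham average. The injury level was -0.06, 0.30 and 1.77 in kidneys 7, 8 and 9 and 0.29, 3.12 and 0.11 in kidneys 10, 11 and 12. The neutrophil level was -0.78, -1.08 and -0.87 in the first 3 and -0.13, 3.41 and 0.29 in the others. Kidney 9 thus had injury genes above sham with neutrophil genes below it, and kidney 11 had both above. These are single kidneys, and the difference between them was not tested.

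**Figure D3:**
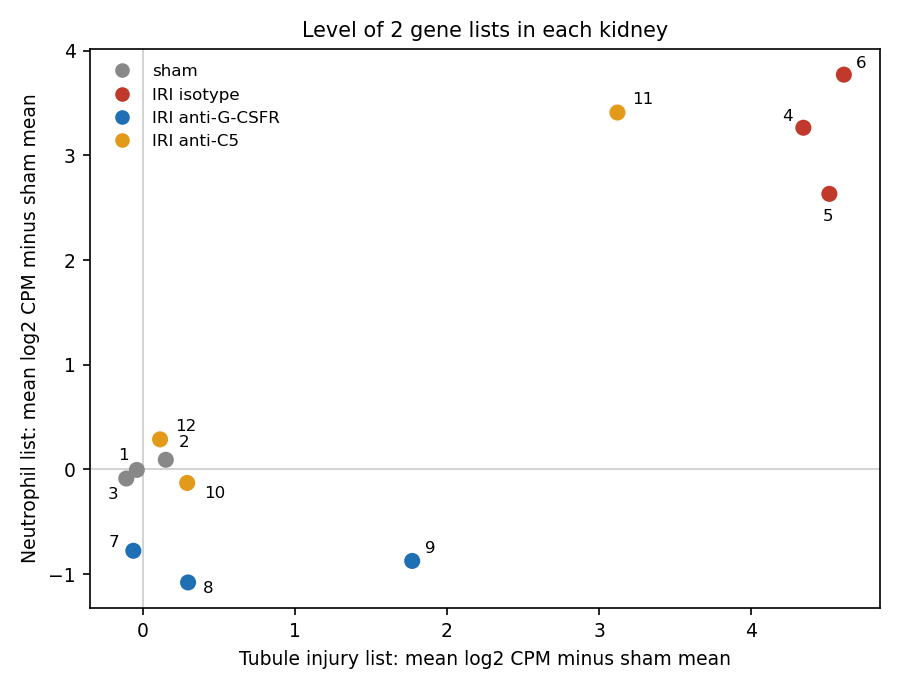
Each point is a kidney, numbered and coloured by group, placed by the level of the tubule injury list (x axis) and of the neutrophil list (y axis), as mean log2 CPM minus the sham mean. Kidney 11 lies towards the isotype kidneys on both axes, kidney 9 lies at 1.77 on the injury axis and -0.87 on the neutrophil axis, and the other 4 antibody kidneys lie near sham on the injury axis.

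Genes of working nephron segments had median differences near 0. Of the 36 proximal tubule genes, 35 fell in the isotype kidneys against sham (edgeR, 30.7% of all genes tested fell). Between the antibody groups the median log2 difference was -0.11, and 0.053 without kidney 11. The interval lay within 2-fold for 30 of the 36, a smaller share than the 91.4% of all genes. Slc5a2, the glucose transporter SGLT2, stood at 383, 464 and 389 CPM under anti-G-CSFR and at 406, 333 and 391 CPM under anti-C5 (interval -0.39 to 0.13). Slc22a8, the organic anion transporter OAT3, stood at 463, 489 and 410 against 368, 306 and 457 CPM (interval -0.57 to 0.04). The groups overlapped for both.

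The other segments had medians near 0 as well. Against 91.4% of all genes, the interval lay within 2-fold for 15 of 18 genes of the loop of Henle and distal tubule list (median -0.08), for 17 of 18 of the collecting duct list (median -0.06), for 11 of 11 of the podocyte list (median -0.07) and for 16 of 16 of the endothelial list (median 0.04). Fatty acid oxidation, the main fuel pathway of the proximal tubule, had 23 of 26 genes with such an interval and a median of -0.11. Interferon response genes had 23 of 26 and a median of -0.012. With 1 kidney left out at a time the medians of these 6 lists ran from -0.23 to 0.14, and each but that of the collecting duct list turned sign in at least 1 of these fits.

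Fat genes held the largest negative differences. All 8 measured genes of the 10 on the list were lower under anti-C5, with a median log2 difference of -4.42, and 7 were so at an unadjusted edgeR p below 0.05, where 0.488% of all genes tested were lower at that threshold. That count depended on the method. In limma-voom the unadjusted p of these 7 genes ran from 0.056 (Fabp4) to 0.31 (Ucp1). Ucp1 (Entrez 22227, chromosome 8, 83290352 to 83298452, protein-coding), the heat-producing uncoupling protein of brown fat, stood at 0, 31.7 and 23.8 CPM in kidneys 7, 8 and 9 and at 0, 0 and 0.773 CPM in kidneys 10, 11 and 12. Kidneys 8 and 9 were high and kidney 7 was at 0, so the groups overlapped. For Ucp1 the log2 difference was -6.18 (interval -10.38 to -1.98).

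Adipoq, the adipocyte hormone adiponectin, stood at 0.198, 7.01 and 14.1 against 0.0705, 0 and 0.928 CPM. Cidec, a lipid droplet protein, stood at 1.26, 9.32 and 22.4 against 0.917, 0.94 and 2.4 CPM. Cfd, adipsin, which is both the adipocyte product and the protease that activates factor B in the alternative complement pathway, stood at 0.264, 23.9 and 49.5 against 0.141, 0.579 and 2.78 CPM. In each of these genes kidneys 8 and 9 were the only antibody kidneys at or above the sham kidneys, which themselves held fat RNA (Ucp1 17.9 to 34.4 CPM, Cfd 6.99 to 12.9 CPM). With 1 kidney left out at a time the median of the list stayed between -6.13 and -3.42. Without both kidneys 8 and 9, chosen because they were seen to be high, kidney 7 alone stood for anti-G-CSFR. The median was then 1.06 and Cfd stood at 2.07, a turn of sign that the choice itself brings. Urothelial genes, which mark the lining of the renal pelvis, were also highest in kidney 9, with a level of -0.06, 0.60 and 1.05 in kidneys 7, 8 and 9 and -0.06, -0.31 and 0.23 in kidneys 10, 11 and 12. The part that the tissue dissected with each kidney had in the fat and Cfd values was not tested.

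**Figure D4:**
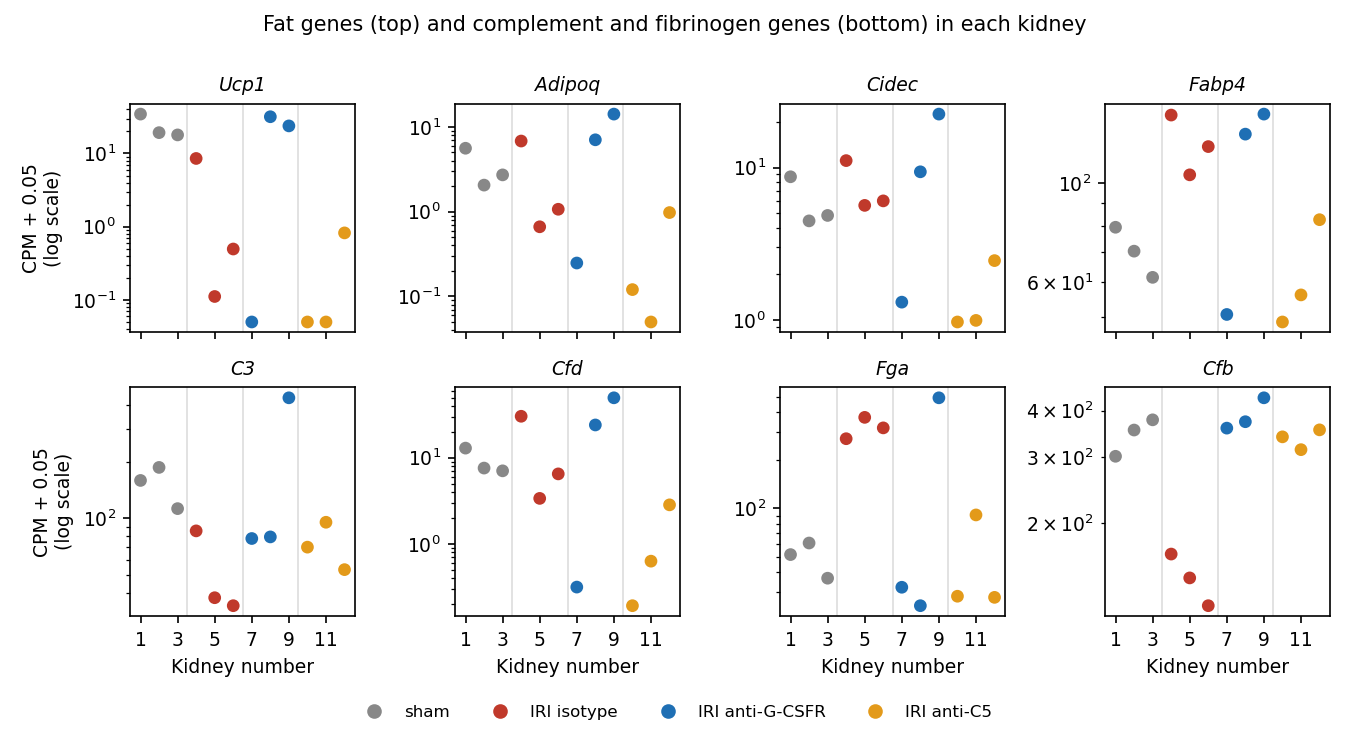
CPM plus 0.05 on a log axis is plotted for 4 fat genes (top) and 4 complement and fibrinogen genes (bottom) in each of the 12 kidneys, one point a kidney, coloured by group. Kidneys 8 and 9 are the 2 high antibody kidneys in the fat panels and for Cfd, and kidney 9 alone is high for C3 and Fga.

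Genes of dividing cells were higher in kidney 11. Of 28 listed cell cycle genes 25 were measured, 24 of them higher under anti-C5, with a median log2 difference of 0.63. Rrm2, the subunit of ribonucleotide reductase made for DNA synthesis, stood at 15.1, 20.5 and 11.2 CPM under anti-G-CSFR and at 23.1, 45 and 23.4 CPM under anti-C5, with no overlap (log2 difference 0.97, interval 0.22 to 1.72). Top2a, the topoisomerase of dividing cells, stood at 4.36, 7.46 and 4.92 against 8.39, 17.6 and 6.49 CPM. Without kidney 11 the median was 0.12 and without kidneys 9 and 11 it was 0.07. Red cell genes were highest in kidney 11 too. The 6 measured red cell and platelet genes summed to 23.6, 58.9 and 22.3 CPM in kidneys 7, 8 and 9 and to 16.8, 193.9 and 44.6 CPM in kidneys 10, 11 and 12, and their part in the neutrophil values of kidney 11 was not tested.

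**Figure D5:**
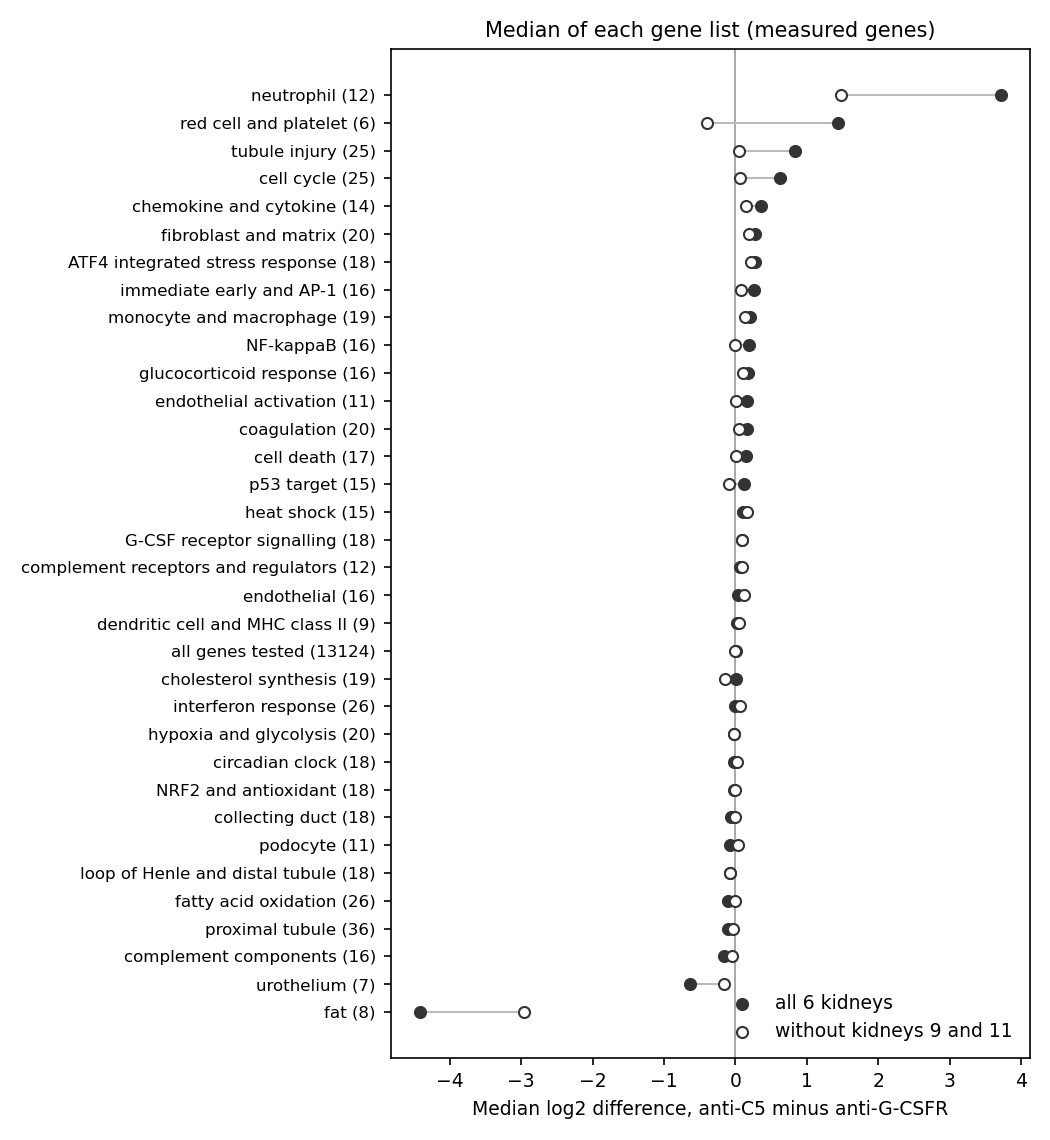
The median log2 difference, anti-C5 minus anti-G-CSFR, of the measured genes of each list is plotted with all 6 kidneys (filled) and without kidneys 9 and 11 (open). The neutrophil list stays on the right at 1.48 and the fat list on the left at -2.97, while the tubule injury and cell cycle lists move to 0.06 and 0.07 and the red cell and platelet list moves to -0.40.

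The genes with no overlap were also ranked over the whole table. Among those with an average of 1 or more on the log2 CPM scale over the 6 kidneys, the 12 of smallest p higher under anti-C5 were S100a9, Ppp1r35, Ror1, Tacc3, Camk2n2, 2810408I11Rik, Lyz2, Rac2, Ccdc86, Sim2, Cldn3 and Adrm1. Ppp1r35, a centriole protein, stood at 6.47, 5.37 and 4.84 CPM under anti-G-CSFR and at 8.25, 7.45 and 9.28 CPM under anti-C5 (log2 difference 0.58, interval 0.23 to 0.92). Ror1, a receptor for Wnt5a, stood at 13.2, 12 and 12 against 15.4, 16.8 and 16.1 CPM (log2 difference 0.37, interval 0.14 to 0.61). S100a9, Lyz2 and Rac2, described above, had kidney 11 well above the other 5, but for Ppp1r35 and Ror1 kidney 11 lay close to kidneys 10 and 12. Without kidneys 9 and 11 the differences of Ppp1r35 and Ror1 were 0.55 and 0.31. Camk2n2, an inhibitor of the kinase CaMKII, stood at 1.39, 1.94 and 2.34 against 3.6, 4.19 and 2.47 CPM. Adrm1, a ubiquitin receptor of the proteasome, stood at 60.8, 53.3 and 53.9 against 64.6, 69.6 and 69 CPM.

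The 12 of smallest p lower under anti-C5 were Asb15, Prkag2, Shisal1, Skida1, Esrrg, Slc7a12, Muc20, Zc3h12b, Acot6, Gldc, Adamts15 and Ugt2b34. Slc7a12 (Entrez 140918, chromosome 3, 14480697 to 14505830, protein-coding), an amino acid transporter of kidney tubule, had the widest difference of the 12. It stood at 10.2, 11.2 and 9.3 CPM under anti-G-CSFR and at 3.53, 1.08 and 5.95 CPM under anti-C5, with a log2 difference of -1.55 (interval -2.78 to -0.31). Its sham kidneys ran from 6.23 to 29.4 CPM, a range that holds all 3 anti-G-CSFR kidneys and none of the anti-C5 kidneys. Asb15, a substrate adaptor of ubiquitin ligases, stood at 5.22, 6.71 and 7.41 against 4.51, 3.69 and 3.09 CPM (log2 difference -0.77, interval -1.23 to -0.31). Esrrg, a nuclear receptor that promotes mitochondrial metabolism in the kidney, stood at 106, 98.6 and 101 against 94.4, 78.4 and 84.3 CPM (interval -0.45 to -0.05). Gldc, the glycine-cleaving enzyme of mitochondria, stood at 197, 226 and 264 against 191, 163 and 196 CPM. All 24 genes were named for their small p among genes with no overlap, and none was called.

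Regardless of direction, the genes at an unadjusted p below 0.05 held injury genes at the share of the whole table. Of the 207, edgeR called 130 in isotype against sham (62.8%), where 62.8% of all genes tested were called, and those 130 were 1.58% of the genes called there. Isotype against sham shares no kidney with the comparison of the antibodies. Both came from the same fit, however, in which all 12 libraries share an estimate of each gene's spread. The p-values of these comparisons are therefore not independent. By direction the shares were unlike those of the table. Of the 143 genes higher under anti-C5, 89 rose with injury and 7 fell, where 32.1% of all genes tested rose and 30.7% fell. Of the 64 lower under anti-C5, 28 fell with injury and 6 rose. With kidney 11 left out, edgeR gave 81 genes higher and 95 lower under anti-C5 at an unadjusted p below 0.05. The split by injury was not recomputed in that fit, and these counts were not tested.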

How the data were processed

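The deposited table holds raw read counts for 13124 genes by Entrez identifier in 12 libraries. Per the submitters' processing notes, the authors used TopHat2 2.1.0, Bowtie2 2.2.5, build GRCm38.p4 and featureCounts. The version, strand setting and treatment of shared reads in featureCounts were not given in the sources used here. Per the labels' protocols, libraries were strand-specific with 100 bp single-end reads, and all carry lane 8 in their labels. Every gene reached 2.01 CPM in 3 libraries, so a minimum had been applied before deposit, as read from the values. Symbols came from RefSeq (GRCm38.p6) and coordinates, 1-based, from GENCODE vM21 (GRCm38). The 50 genes with no symbol held 0.0811% of counts.

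Kidneys of the same group, taken in pairs, gave chi-square values 5.45 to 65.3 times their degrees of freedom, beyond sampling noise, and each kidney counted as 1 replicate. Since the labels do not give the mouse of each kidney, p-values measure only the spread between these kidneys. One fit of edgeR 4.0.16 (R 4.3.3; TMM factors, robust quasi-likelihood, filterByExpr, which removed nothing) over all 12 libraries, with 8 residual degrees of freedom, gave the contrast anti-C5 minus anti-G-CSFR, adjusted by Benjamini-Hochberg over all genes and called below 0.05. CPM values are TMM-scaled, and list levels use log2 CPM with a prior count of 2. Alternatives were upper-quartile or RLE factors, library totals, no filter, at least 10 CPM in 3 libraries, DESeq2 1.42.0, limma-voom (limma 3.58.1) with and without sample weights, the 6 libraries alone, no robust option, a 1.5-fold test, each library left out, kidneys 9 and 11 left out together and, chosen after seeing the data, kidneys 8 and 9 left out together. The script was tested on simulated data.

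The samples, the 37 gene lists and the rules were chosen with earlier results of these data known. Named genes were the targets (Csf3r, Csf3, C5ar1, C5ar2, Hc), the 12 genes in each direction with no overlap and a mean of 1 or more in log2 CPM, filled by smallest p because none was called, and the 2 genes of smallest p in each list with at least 3 measured genes. The rule also asked for called genes of high level and called genes outside the injury response, of which there were none. Genes named outside the rule, after their values were seen, were Cxcr2, Slfn4, Clec4d, Clec4e, Retnlg, Mmp9, Hdc, Il1r2, Il1b, Trem1, Havcr1, Lcn2, Krt20, Spp1, Ucp1, Adipoq, Socs3, Cfb, Top2a, Csf1r, C1qc, Jak2, Cebpb, Cxcl12, C3ar1, Cr1l, Fgb, Fgg, Cd44 and Il24. Some genes that the rule picked are not reported here.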

Additional observations from a re-analysis of the deposited data

How the results depend on the processing

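The count of 0 called genes held in every alternative except DESeq2, which called 2 (2 higher, 0 lower), S100a8 at 5.12 and Cxcr2 at 5.53. Genes at an unadjusted p below 0.05 numbered 207, and from 39 (1.5-fold test) to 585 (without kidney 12), with 176 without kidney 11, 523 without kidney 10, 105 in the 6 libraries alone and 104 without kidneys 9 and 11. Library totals alone gave 166 higher and 46 lower of 212. No paired analysis was possible because each kidney number occurs once and no number is shared between groups. Among the genes recomputed, which leave out Il24, signs turned only for those and in the settings named here, and the cause was not tested. As log2 differences, limma-voom gave Spp1 -0.069 and Socs3 -0.047, and with sample weights Hbb-bt -0.24, Il1b -0.20, Krt20 -0.29, Spp1 -0.061, Socs3 -0.16, C3ar1 -0.13, Cr1l -0.048 and Cxcl12 0.11. Without kidneys 9 and 11 they were H2-DMb1 0.062, Hbb-bt -0.24, Cldn14 -0.47, Ptpro 0.040, Gsta1 -0.25, Il1r2 -0.19, Il1b -0.49, Havcr1 -0.41, Krt20 -0.81, Spp1 -0.11, Socs3 -0.27, C3ar1 -0.12, Cr1l -0.044 and Cxcl12 0.11. Without kidneys 8 and 9, which leaves kidney 7 alone in its group and assumes that it varies like the others, they were H2-DMa 0.040, H2-DMb1 0.26, Cfd 2.07, Synpo 0.011, Ptpro 0.084, Pfkfb3 0.33, Fga 0.60, Cidec 0.15, Cidea 1.45, Upk1b 0.11, Ucp1 4.95, Adipoq 0.66, Plin1 3.31, Fabp4 0.29, Fgb 2.61, Fgg 1.30, Cr1l -0.031 and Jak2 -0.048. Leaving out 1 kidney at a time gave ranges that crossed 0 for C5ar1 (-0.35 to 1.26), H2-DMb1 (-0.35 to 0.024), Itgam (-0.058 to 1.38), Cxcl1 (-0.77 to 2.85), Il11 (-1.20 to 4.62), Cldn14 (-1.28 to 2.96), Cdh5 (-0.016 to 0.21), Tnc (-0.0065 to 2.02), Fosl1 (-2.78 to 5.60), Hspb1 (-0.0014 to 1.71), Gsta1 (-1.29 to 3.08), Pfkfb3 (-0.51 to 0.023), Clock (-0.18 to 0.029), Anxa2 (-0.041 to 1.46), Fga (-2.70 to 0.78), Il1r2 (-0.37 to 3.24), Il1b (-0.47 to 1.99), Trem1 (-0.83 to 4.84), Havcr1 (-2.55 to 4.06), Lcn2 (-1.94 to 3.03), Krt20 (-2.23 to 3.85), Spp1 (-1.72 to 1.62), Socs3 (-1.75 to 1.60), C3ar1 (-0.10 to 0.14), Cebpb (-0.011 to 0.59), Cr1l (-0.032 to 0.067), Csf1r (-0.053 to 0.28), Cxcl12 (-0.19 to 0.15), Fgb (-4.81 to 1.91), Fgg (-3.62 to 1.20) and Jak2 (-0.018 to 0.11). Leaving out kidney 11 turned the sign of 22 of these, and leaving out another antibody kidney that of the rest. Among the 22, the signs of Spp1, Socs3, C3ar1, Cr1l and Cxcl12 also turned when another antibody kidney was left out. Where the median of a list is described with its genes above, its turns with 1 kidney left out are given there. Without kidney 11 the median of the red cell and platelet list went from 1.44 to -0.090. Medians of lists not described here turned negative too, such as chemokines and cytokines (-0.40) and NF-kappaB (-0.14). Neutrophil genes had few counts: the group of kidneys 7 to 9 held 3 counts of Cxcr2 in all. Their fitted sizes are therefore imprecise, and a lack of overlap between groups can rest on a few reads.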
